A study of Mus musculus with 8 samples.

Results

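The response of cultured parietal epithelial cells (PECs) to their culture medium was described from 4 of the 8 arrays of the series, namely those of PECs kept in EGM-MV or in RPMI. The members were the 4 PEC arrays of the normalized table, paired by the culture number in the column names: PEC culture 2 in EGM-MV and in RPMI, and PEC culture 3 in EGM-MV and in RPMI. All 22237 genes of the table were compared. The other 4 arrays held podocytes in the same media and entered the fit for the estimate of the spread and for the comparison of the responses. PECs came from female PEC-rtTA/LC1/R26R mice of a mixed background given as 75% Sv129. In these triple transgenic mice a rabbit podocalyxin promoter drives the transactivator. Doxycycline, given to all mice before glomeruli were isolated, switches on Cre and with it a lasting beta-galactosidase tag. Podocytes came from Pod-rtTA/LC1/R26R mice tagged in the same way. Capsulated glomeruli for PECs, and decapsulated glomeruli for podocytes, were grown out for 7 to 14 days, in EGM-MV according to the labels of all samples, and tagged cells were then sorted by the fluorescence of a beta-galactosidase substrate. The arrays were made after repeated passages, from RPMI with fetal calf serum or from EGM-MV with a higher share of serum. By these labels, cells on both sides of the comparison had been through EGM-MV, and each difference between the media includes the difference in serum. Each group held 2 arrays, 1 from each of 2 separate cultures of the cell type.

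PECs line the inside of Bowman's capsule, opposite the podocytes that cover the glomerular capillaries. In the healthy glomerulus they are flat and rarely divide, while in crescentic glomerulonephritis and in focal segmental glomerulosclerosis they become activated, proliferate and deposit matrix. RPMI is a basal medium that leaves growth factors to the added serum. EGM-MV was made for microvascular endothelial cells and is sold with epidermal growth factor, a glucocorticoid and a brain extract as supplements. The comparison asks how far the medium, with its serum, moved expression in genetically tagged parietal cells.

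The deposited values identify genes by Ensembl ID without a name, and the table of mouse genes used here paired 0 of the 22237 IDs with a symbol. The markers of parietal cells, podocytes, endothelium, mesangium, fibroblasts, leukocytes and tubules, and the pathway lists written as symbols, were therefore not analysed here, and the labelled cell type was not checked against its markers. No promoter or protein is printed for the same reason. The values are log2 intensities in arbitrary units after quantile normalization, and 1 unit means 2-fold relative to the other genes. The RNA content of the cells is not measured. In such bulk RNA, a smaller share of some cell type and less RNA per cell cannot be told apart. The medians of the 4 PEC arrays lay between 6.27 and 6.32. A mean of 6 (log2) was taken as the background level, and 12882 genes reached it in at least 1 PEC group while 9355 lay below it in both.

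PECs in EGM-MV and in RPMI differed at a minority of genes, and more of these genes were higher in EGM-MV than lower. By limma, with the culture left out of the model, 2726 genes were called (Benjamini-Hochberg adjusted p below 0.05), 12.3% of the genes tested. Of these, 1699 (7.64% of the genes tested) rose and 1027 (4.62%) fell in EGM-MV. Most changes were small. The median size of a called change was 0.55 (log2), or 1.47-fold, and 85.9% of the called genes differed less than 2-fold. The smallest called change was 0.26, and the median SE over all genes was 0.10. At least 2-fold changes were called at 385 genes (1.73%), 208 higher and 177 lower. Called changes of at least 4-fold numbered 28 higher and 43 lower. The balance at 2-fold depended on the scaling. Repeated quantile normalization gave 188 higher and 191 lower, and centring the arrays on their medians gave 233 and 157. All 2726 called genes were separated between the media without overlap of the arrays, as were 54.8% of all genes.

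The number of called genes depended on how the spread was estimated. With the culture as a replicate block, 4266 genes were called (19.2%), 2716 of which were among the 2726. The 4 PEC arrays alone gave 374 without the block and 3284 with it. The methods' t-test, which leaves the variances unmoderated, called 358 after Benjamini-Hochberg adjustment. Without 1 array, fewer genes passed: 1732 without EGM-MV culture 2, 1797 without EGM-MV culture 3, 1781 without RPMI culture 3, and 1600 without podocyte EGM-MV culture 2 or, as many, without podocyte EGM-MV culture 3. Higher genes made up 62.3% of the calls. Repeated quantile normalization gave 52.2%, and centring the arrays on their medians gave 71.6%. At an unadjusted p below 0.05, 6017 genes differed, and the distribution of the p-values put the share of truly changed genes at 35.2%.

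Both PEC cultures changed in much the same way when the medium was changed. Across all 22237 genes, the difference between EGM-MV and RPMI in culture 2 and that in culture 3 correlated at r = 0.78 (Spearman's rho = 0.65), and at r = 0.82 over the genes at or above 6. No array is shared between the 2 differences, but all arrays were normalized together and genes are not independent replicates. The SD over genes of the difference was 0.37 in each culture. Genes picked by 1 culture could be read in the other. Of 289 genes at least 2-fold higher in EGM-MV in culture 2, 280 (96.9%) were also higher in culture 3, where 155 reached 2-fold and the median difference was 1.07. Of 220 genes at least 2-fold lower in culture 2, 214 (97.3%) were also lower in culture 3, 140 by at least 2-fold, with a median of −1.18. Read the other way, 265 of 269 genes (98.5%) at least 2-fold higher in culture 3 were higher in culture 2, and 215 of 219 (98.2%) at least 2-fold lower were lower there. Over all genes, 48.5% were higher in EGM-MV in culture 3 and 47.5% in culture 2.

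**Figure D1:**
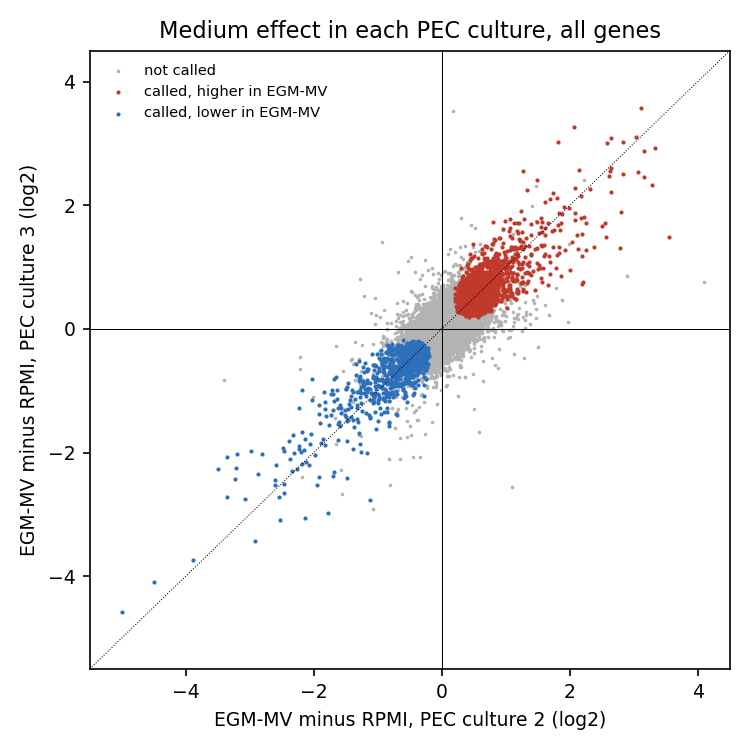
Difference between EGM-MV and RPMI (log2) in PEC culture 2 (horizontal axis) and in PEC culture 3 (vertical axis), 1 point per gene for all 22237 genes. Red points are the 1699 genes called higher and blue points the 1027 called lower in EGM-MV, grey points were not called, and the dotted line marks equal differences. The called genes lie in the quadrants where both cultures moved the same way, but the calls use the same arrays. Their shared direction is therefore not independent of the call.

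The measured change of single genes was not always of the same size in the 2 cultures. The difference between the media was at least 2-fold apart between the cultures at 114 genes, with the more positive value in culture 2 at 69 and in culture 3 at 45. With 1 array per culture and medium, such gaps could not be tested. Divided by source over the 4 PEC arrays, 64.9% of the variance lay between the media, 26.9% between the cultures irrespective of the medium, and 8.2% in differences between the cultures that changed with the medium. The last part cannot be told apart from the noise of single arrays. By the second part, the culture itself set some genes apart. In both media, 64 genes were at least 2-fold higher in culture 3 and 22 were at least 2-fold higher in culture 2. Of these 86 genes, the main fit called 4 (4.65%) for the medium, against 12.3% of all genes. With the culture as a block, 46 (53.5%) were called, against 19.2% of all genes. The main fit could thus hardly call a medium effect at genes that differed between the cultures. A fitted change of at least 2-fold did not pass at 61 genes, 26 higher and 35 lower in EGM-MV. Since they failed at such a change they had to have large SEs, and their median SE was 0.44, against 0.17 for the 385 that passed. Of the 61, 59 passed with the culture as a block.

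The largest changes are given by ID, with every array, for 2 genes that rose and 2 that fell. They were the first by size among 1638 higher and 966 lower called genes that had a mean of at least 6 in the higher PEC group and no overlap between the media. ENSMUSG00000035775 had the largest rise, with log2 values of 7.19 in culture 2 and 6.42 in culture 3 in RPMI, and of 10.30 and 9.99 in EGM-MV. Both EGM-MV arrays thus lay over 2 log2 units above both RPMI arrays. The change was 3.35 ± 0.23 (log2, SE, limma adjusted p = 0.000421), or 10.2-fold, with 3.12 in culture 2 and 3.57 in culture 3. ENSMUSG00000074934 was at background in RPMI, with 5.69 in culture 2 and 5.75 in culture 3, and was measured at 9.03 and 8.68 in EGM-MV. The change was 3.13 ± 0.15 (adjusted p = 0.00011), or at least 7.24-fold with the RPMI mean set to 6. The RPMI cultures of this gene differed by less than the EGM-MV cultures did, with SDs of 0.04 and 0.25 (n = 2).

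ENSMUSG00000024680 had the largest fall, from 10.20 in culture 2 and 10.53 in culture 3 in RPMI to 5.20 and 5.95 in EGM-MV. Both EGM-MV values lay below 6, so this gene was well expressed in RPMI and at background in EGM-MV. It fell by 4.79 ± 0.33 (adjusted p = 0.000439), or at least 20.6-fold with the EGM-MV mean set to 6. ENSMUSG00000039323 fell from 10.99 in culture 2 and 10.56 in culture 3 to 6.49 and 6.47. The EGM-MV arrays were nearly equal, and the groups were far apart. It fell by 4.29 ± 0.16 (adjusted p = 9.89e-05), or 19.6-fold.

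**Figure D2:**
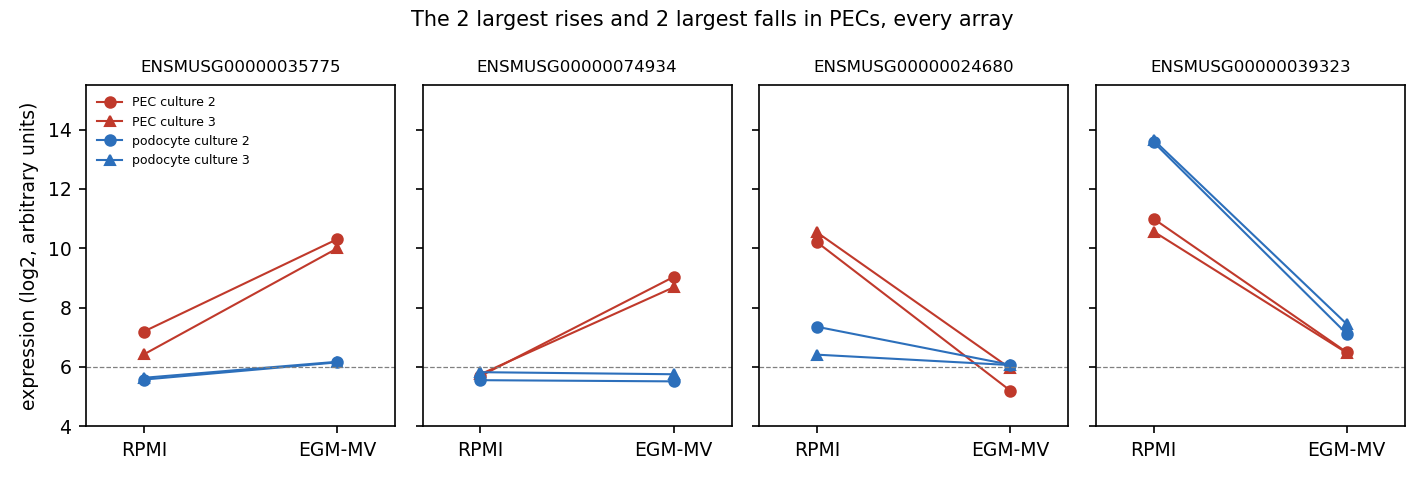
Expression (log2, arbitrary units) in RPMI and in EGM-MV of the 2 genes with the largest rise and the 2 with the largest fall in PECs, 1 point per array, with lines joining the media of a culture. Red marks PECs and blue podocytes, and the dashed line is the background level of 6; in PECs the RPMI and EGM-MV arrays are separated in all 4 panels, while 1 gene, ENSMUSG00000039323, also falls steeply in podocytes.

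Few genes were switched from background to a clear level or back. Of the genes called higher, 5 went from a mean below 6 in RPMI to at least 8 in EGM-MV. Of those called lower, 6 went from at least 8 in RPMI to below 6 in EGM-MV. More genes crossed 6 by any amount. Of the genes called higher, 101 had a mean below 6 in RPMI and at least 6 in EGM-MV, and of those called lower, 115 went from at least 6 in RPMI to below 6 in EGM-MV. Most large changes were thus found at genes measured in both media. Of the 208 genes at least 2-fold higher, 44 were below 6 in RPMI, and of the 177 at least 2-fold lower, 27 were below 6 in EGM-MV.

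Genes at higher expression were called more often. Of 9788 genes with a mean below 6 over the 4 PEC arrays, 2.09% were called. The share was 15.8% of 6175 genes from 6 to 8, 24.5% of 4360 genes from 8 to 10, and 24.9% of 1914 genes at 10 or above. The median SE was much the same in these bins, between 0.09 and 0.11, while the SD of the changes was 0.16 below 6 and between 0.41 and 0.46 above. The cultures also moved together more closely at expressed genes, with r = 0.44 below 6 and r = 0.79, 0.84 and 0.86 in the bins above. Among called genes, the share that rose was 47.3% below 6, 57.3% from 6 to 8, 66.7% from 8 to 10 and 69.2% at 10 or above. After repeated quantile normalization the shares no longer climbed with the level, at 58.5%, 52.2%, 50.6% and 52.9%, while after centring on the medians they still climbed above 6, at 67.8%, 66.6%, 73.8% and 77.5%. The SD over genes was 1.98 on both EGM-MV arrays and 1.94 on both RPMI arrays, and its part in these shares was not tested.

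**Figure D3:**
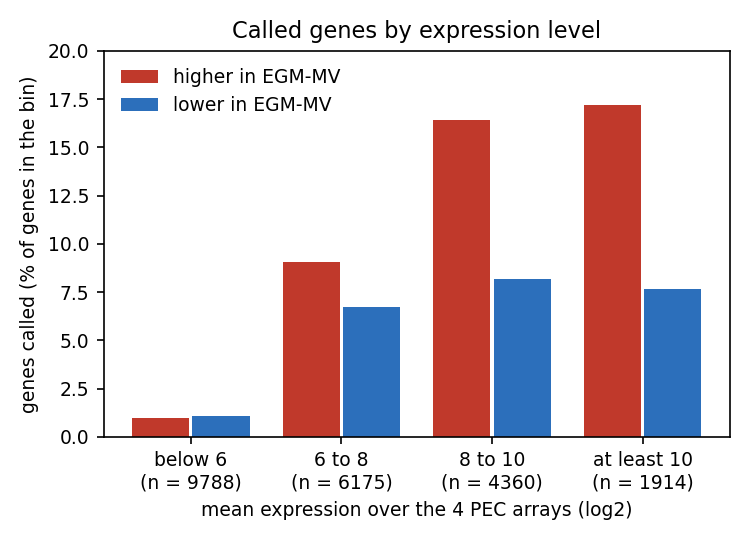
Share of genes called between the media in PECs (vertical axis, % of the genes in a bin) by the mean expression over the 4 PEC arrays (horizontal axis, log2, number of genes in parentheses), with genes higher in EGM-MV in red and lower in blue. Below a mean of 6, 0.991% were higher and 1.1% lower; at 10 or above, 17.2% were higher and 7.68% lower.

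Genes that mark phases of the cell cycle were described from lists of Ensembl IDs, which need no gene names. The lists were taken from the marker pairs that the R package scran ships for mouse cells, in which the order of expression within a pair of genes depends on the phase. They came from mouse embryonic stem cells, so how well they mark phases in PECs is not known. The proteins at work in the G1 phase prepare a cell for division, those of the S phase copy the DNA, and those of the G2 and M phases build the spindle and separate the chromosomes. Of the 72, 56 and 58 IDs of the G1, S and G2/M lists, 69, 54 and 56 were measured, and 0 IDs were shared between lists.

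All 3 lists had a positive median medium effect in PECs, while most of their genes did not pass the test. In the G1 list, 15 genes were higher in EGM-MV, 2 were lower and 52 did not pass, with a median of 0.24 (log2). In the S list, 10 were higher, 3 lower and 41 did not pass, with a median of 0.10. In the G2/M list, 7 were higher, 3 lower and 46 did not pass, with a median of 0.18, a lowest value of −1.57 and a highest of 1.98. The median over all 22237 genes was −0.012, and over genes with a mean from 8 to 10, where the list medians lay, it was 0.08. The shares called, 24.6% for G1, 24.1% for S and 17.9% for G2/M, stood beside 12.3% of all genes and 24.5% of genes from 8 to 10. The shares of the G1 and S lists were thus near that of other genes at their level, and the share of the G2/M list was below it. Of the genes from 8 to 10, 16.4% were called higher and 8.17% lower. The shares called higher were 21.7% for G1, 18.5% for S and 12.5% for G2/M. Single IDs of the lists are not given, since no names were paired with them. The medians also moved with single arrays. Without EGM-MV culture 2 the S median was 0.029 and without RPMI culture 3 it was 0.054, both below the 0.08 of genes at its level, and without EGM-MV culture 3 it was 0.159. The G1 median was 0.135 without RPMI culture 3. All 3 medians were above 0 in each setting run. The counts were not stable either. After repeated quantile normalization, 5 S genes were higher and 6 lower, and with the culture as a block, the G2/M list had 16 higher genes. Over the 10 settings that left out 1 array or both arrays of a PEC culture, 4 to 12 G1 genes, 2 to 5 S genes and 5 to 8 of the G2/M list were higher, with the lowest G1 count without RPMI culture 3.

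The level of the lists, as the median log2 value over their genes, also showed the cultures side by side. The G2/M list lay at 8.43 in culture 2 and 8.39 in culture 3 in RPMI, and at 8.75 and 8.51 in EGM-MV. Both EGM-MV arrays were above both RPMI arrays, by 0.08 at the closest. The S list lay at 8.29 and 8.21 in RPMI and at 8.47 and 8.27 in EGM-MV, so the media overlapped. The G1 list lay at 8.67 and 8.50 in RPMI and at 8.65 and 8.62 in EGM-MV, again with overlap. Gene by gene, 32 of the 56 in the G2/M list lay higher in EGM-MV in both cultures and 13 lay lower in both.

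The G2/M list moved further in podocytes. Its median there was 0.71, with 36 of 56 rising in EGM-MV and 3 falling, against 7.7% and 5.99% of all genes in podocytes. Shares among genes at the level of the list are not given for podocytes or for the difference between the cell types. In PECs, genes at higher expression were called more often than all genes. The difference of the medium effect between the cell types passed at 18 of the 56 genes, 17 with the higher value in podocytes (1.48% of all genes) and 1 with the higher value in PECs (1.51%), and the median difference was 0.42. The podocyte arrays of the list lay at 7.56 and 7.31 in RPMI and at 8.19 and 8.21 in EGM-MV, so podocytes in RPMI were lowest and PECs in EGM-MV highest. The difference passed at 5 of 54 S genes, all 5 with the higher value in podocytes. The G1 list had a median difference of 0.06.

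**Figure D4:**
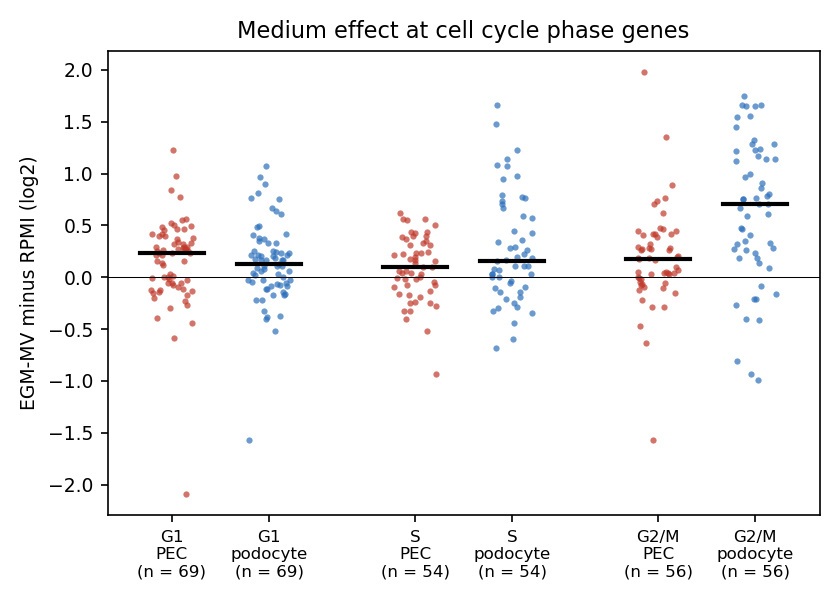
Difference between EGM-MV and RPMI (vertical axis, log2) of each measured gene of the G1, S and G2/M lists, in PECs (red) and in podocytes (blue), with the number of genes in parentheses and the median as a black bar. The G2/M medians are 0.18 in PECs and 0.71 in podocytes, while the G1 medians are 0.24 and 0.12 and the S medians 0.10 and 0.16.

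Of the 385 genes called and at least 2-fold changed in PECs, 340 had a difference of the same sign in podocytes. The share with the same sign over all genes is not given here. The 208 genes called and at least 2-fold higher in PECs had a median change of 1.31 in PECs and of 0.75 in podocytes. In podocytes, 119 of them were called higher and 6 lower, against 7.7% and 5.99% of all genes. The 177 genes at least 2-fold lower had a median of −1.41 in PECs and of −0.81 in podocytes, where 93 were called lower and 5 higher. The PEC values chose these genes and are for that reason larger on average, and the calls in both cell types rest on 1 shared variance per gene. Over all called genes, the podocyte medians were 0.29 for the 1699 that rose in PECs and −0.31 for the 1027 that fell.

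The medium effect differed between podocytes and PECs at 664 genes by the interaction test (2.99% of the genes tested), and 330 of these were among the 2726 called in PECs. The interaction and the PEC call share the PEC arrays, so this overlap is not independent of the call. At 135 of the 330 genes the change was positive in PECs and negative in podocytes, and at 63 it was negative in PECs and positive in podocytes. At 66 of these 198 genes the opposite change in podocytes was itself called. At 76 genes the change had the same sign and was smaller in podocytes, and at 56 it was larger. Of the 385 strongly changed genes, 92 differed in this way. The count of 664 rested on the fit, with 1604 for the culture as a replicate block, and 1 by the methods' t-test once adjusted. Each setting that left out an array left a group with 1 array. Without a whole PEC culture, the spread came from the podocytes alone. Leaving out podocyte EGM-MV culture 2 gave 149, and culture 3 gave 165. Leaving out podocyte RPMI culture 2 gave 220, and culture 3 gave 254. When PEC culture 2 was dropped entirely, 1238 genes passed, and 1222 when PEC culture 3 was.

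**Figure D5:**
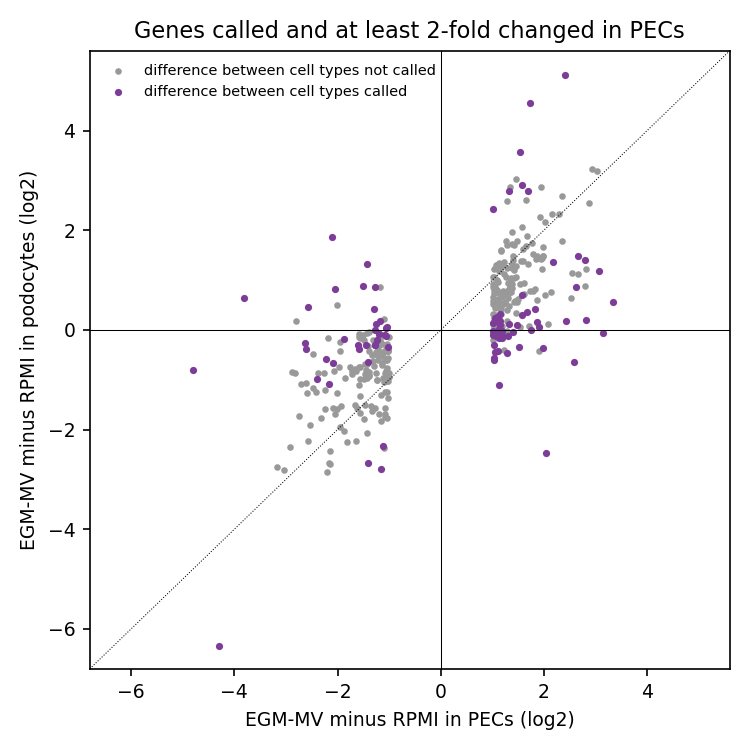
Difference between EGM-MV and RPMI (log2) in PECs (horizontal axis) and in podocytes (vertical axis) for the 385 genes called and at least 2-fold changed in PECs. Purple points are the 92 genes whose difference between the cell types was called, grey points the others, and the dotted line marks equal changes; 340 points lie in the quadrants where both cell types moved the same way.

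By limma, the interaction was called at all 4 genes named above. These genes were picked by the size of their change in PECs, and the interaction uses the same PEC arrays. Its values at these genes are therefore not independent of that choice. By the methods' t-test, the adjusted interaction passed at only 1 gene of the whole table. ENSMUSG00000035775 was near background in podocytes, with 5.57 and 5.63 in RPMI and 6.15 and 6.17 in EGM-MV, and its change there of 0.56 was not called (limma adjusted p = 0.168). The interaction, podocytes minus PECs, was −2.78 ± 0.32 (adjusted p = 0.00664), or −3.19 with the podocyte RPMI mean set to the background of 6. ENSMUSG00000074934 stayed below 6 on all 4 podocyte arrays, between 5.51 and 5.82, so no change could be read there, and the measured difference was −0.05 (adjusted p = 0.913). Its interaction was −3.19 ± 0.21 as measured (adjusted p = 0.00091), and at least 2.86 in size with means below 6 set to 6. ENSMUSG00000024680 had 7.35 and 6.41 in podocytes in RPMI and 6.07 and 6.06 in EGM-MV, a change of −0.81 (adjusted p = 0.17) and an interaction of 3.98 ± 0.46 as measured (adjusted p = 0.00724), or at least 3.55 with the EGM-MV mean of PECs set to 6. At these 3 genes the change in PECs was large and the difference in podocytes did not pass. The podocyte mean of ENSMUSG00000024680 in RPMI was only 6.88, which left little room above the background of 6. A fall as large as in PECs could therefore not be read in podocytes. ENSMUSG00000039323 fell further in podocytes than in PECs, from 13.57 and 13.65 in RPMI to 7.11 and 7.44 in EGM-MV, with an interaction of −2.04 ± 0.22 (adjusted p = 0.00561). The podocyte change was −6.33. From the PEC mean of 10.78 in RPMI, such a fall would have ended below the background of 6 and could not be read.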

How the data were processed

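Total RNA of cultured PECs and podocytes in 2 media was hybridised to 8 Affymetrix arrays of the Mouse Gene ST type. The log2 values deposited by the authors come from JMP Genomics with a probe set definition of 1 value per Ensembl gene, by RMA background correction, quantile normalization, log2 conversion and an iterative filter on outlying data points. The version of RMA is not given in the sources used here. No scanner intensities were used here, so the precision rests on the number of arrays. The second table, from the series matrix, held 22215 of the 22237 genes. The 8 values of each shared gene, sorted by size, differed by 0 from those of the first. This comparison does not show which column matches which sample.

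Genes were fitted with limma 3.58.1 in R 4.3.3 (lmFit, eBayes) as 4 group means over 8 arrays, with 4 residual degrees of freedom. P-values were two-sided and Benjamini-Hochberg adjusted over all genes of a comparison, with 0.05 as the threshold. The fit was tried on simulated data with noise drawn separately for each array. Those data held no difference between cultures shared by the media, so the trial does not cover the paired cultures here. The column names and the study's methods, which describe independent cultures kept in both media, pair the media by culture. The main fit did not use this pairing, and the culture as a block was an alternative. With 2 cultures of each cell type, the p-values measure the spread between cultures only. That spread was pooled over the 4 groups, podocytes included, and moderated across genes. Before moderation, its median SD over genes was 0.095 in PECs and 0.082 in podocytes. The difference between cultures correlated across genes between media at r = 0.53 in PECs and r = 0.07 in podocytes. Named IDs were the 2 largest called changes in each direction with a mean of at least 6 in the higher group and no overlap between media. A phase list held the IDs that, in the marker pairs shipped with the package scran (no function of which was used), stood in at least 10 pairs of the phase, came first in at least 90% of them, and came first in at most 50% of the pairs of each other phase. The members and lists were chosen with earlier results of these data known, and the phase lists replaced lists of symbols that 0 IDs matched.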

Additional observations from a re-analysis of the deposited data

Results flagged for a closer look

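The interaction of medium and cell type passed at 664 genes (limma), which is why it is listed: the same change of medium gave unequal effects in podocytes and PECs there. All 4 named genes were among them, with a podocyte effect that differed from the PEC effect by −2.78 (log2) for ENSMUSG00000035775, −3.19 for ENSMUSG00000074934, 3.98 for ENSMUSG00000024680 and −2.04 for ENSMUSG00000039323. These genes had been picked by the size of their PEC change, so the values are not independent of that choice. Some of their group means lay below the background of 6, so that −3.19 for ENSMUSG00000074934 and 3.98 for ENSMUSG00000024680 are measured values behind sizes of at least 2.86 and at least 3.55, and −2.78 for ENSMUSG00000035775 became −3.19 with the dim podocyte mean set to 6. The level in RPMI also limited the readable fall of ENSMUSG00000024680 in podocytes and of ENSMUSG00000039323 in PECs. Neither left room above 6 for a fall as large as in the other cell type.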

How the results depend on the processing

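With the culture as a replicate block, 4266 genes were called in PECs, 2600 higher and 1666 lower in EGM-MV, and the interaction was called at 1604. On the series matrix table with the labelled replicate number as a replicate block (an alternative added with the data known) the counts were 4268, 2600, 1668 and 1604. Of the list counts, the block moved the G2/M genes higher in EGM-MV from 7 to 16. The 4 PEC arrays alone gave 374 calls, 241 higher, 133 lower and 179 at least 2-fold. The methods' t-test gave 358, 201, 157 and 104 after Benjamini-Hochberg adjustment, with 1 interaction, and 568, 334, 234 and 139 at the methods' single-gene threshold, with 256 interactions. Leaving out an array, or both arrays of a PEC culture, gave 1600 to 2347 calls, 1012 to 1458 higher, 588 to 908 lower, 351 to 505 at least 2-fold and 149 to 1238 interactions. Without RPMI culture 3 the count of higher genes was 1055, and without EGM-MV culture 2 it was 1088. Repeated quantile normalization, centring on the median, an intensity trend and a minimum mean of 6 or 7 left the counts over all genes within 1.5 times, but not all list counts: repeated quantile normalization gave 5 S genes higher and 6 lower, and centring gave 1 lower, from 10 and 3. The PEC change of each of the 4 named genes stayed called, in its direction, in all 22 alternatives. The highest adjusted p-value was 0.0397, by the methods' t-test. These alternatives are not separate checks. The series matrix held the same values per gene, and leaving out either podocyte array of a medium gave the same PEC result. The interaction of the named genes was not followed over the alternatives. The G2/M list had 12 higher genes with either minimum, and the G1 median went from 0.24 to 0.165 with repeated quantile normalization and to 0.282 with centring. The cause was not tested. Values near 6 limit what can be read of dim genes.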
